A study of Mus musculus with 21 samples.

Results

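The peaks described here are sites bound by estrogen receptor α (ERα) in mouse visceral white adipose tissue (vWAT) after estradiol that were listed for no other tissue or treatment in the series. ERα binding had been measured by ChIP-seq, which sequences the DNA fragments that an antibody pulls down with the protein, and the authors deposited 1 peak list per group. Peaks were selected on measured values: a peak was included when its −log10 q-value in the vWAT estradiol list was at least 2 and it overlapped no peak of the other 4 lists. Its summit, the position of highest signal, also had to lie over 1 kb from every end of a protein-coding gene and at most 100 kb from a protein-coding gene span. Of 20715 vWAT estradiol peaks on chromosomes 1 to 19 and X, 5794 met the rule (28%). These are called visceral-only peaks below, which says that they were in no other list and not that the site is unbound elsewhere.

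All mice were of the CD-1 strain and 10 weeks old. The groups used are vWAT after estradiol (4 ERα libraries), subcutaneous white fat (labelled scWAT; 3), brown fat (BAT; 1) and Liver (2) after estradiol, and vWAT after vehicle (2). The sources used here do not give the dose, route or time of treatment, the sex of the mice or the animals behind each library. Each group has 1 list for all its libraries, so no value below has a replicate check and no test between groups could be made. The intervals printed are 95% Wilson intervals for shares, and where a count is 0 the limit is 3 counts of the total. Both cover counting error over peaks or genes alone. The lists were unequal, with 20715 peaks for vWAT estradiol, 17971 for scWAT, 5193 for BAT and 21411 for Liver, against 7400 for vWAT vehicle. The q-value limit was set on the vWAT estradiol list alone, and peaks of the other lists counted at any q-value. A −log10 q-value of 2 was reached by 88.0% of scWAT, 70.9% of vWAT vehicle, 46.4% of Liver and 33.5% of BAT peaks. With that limit set on the other lists too, 6399 peaks met the rule. In a bulk tissue, fewer cells of a type and less binding per cell cannot be told apart. The lists hold no expression, so the tissue labels could not be checked against RNA levels of marker genes. The adipocyte genes Adipoq, Fabp4 and Plin1 each had 2 peaks in the vWAT estradiol list inside their spans or within 25 kb. In the Liver list they had 2, 1 and 0, so such counts do not check the labels.

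ERα is a nuclear receptor that estradiol activates. It binds as a dimer to estrogen response elements, in which a pair of short arms face each other across a spacer, and it also reaches DNA through other factors such as AP-1. Most of its sites lie away from promoters. In white fat, estradiol is known to restrain lipid storage and to affect where fat is laid down, and visceral and subcutaneous depots differ in developmental origin, cell makeup and response to the hormone.

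The sequences of 4 sites are shown first because they carry the motif that ERα itself reads, at the strongest visceral-only peaks for which sequence was at hand and at the peak with a perfect element. No genome of the build was at hand, so sequence came from windows of 250 bases before to 50 bases after annotated transcript starts, taken from RefSeq on GRCm38.p6, the assembly of mm10. Visceral-only peaks overlapped 112 such windows, 66 at starts of long noncoding RNA genes and 46 at starts annotated to protein-coding genes. The windows shown run 5′ to 3′ on the strand of the noncoding gene, and capitals mark the 13 bases of the element.
Gm46743: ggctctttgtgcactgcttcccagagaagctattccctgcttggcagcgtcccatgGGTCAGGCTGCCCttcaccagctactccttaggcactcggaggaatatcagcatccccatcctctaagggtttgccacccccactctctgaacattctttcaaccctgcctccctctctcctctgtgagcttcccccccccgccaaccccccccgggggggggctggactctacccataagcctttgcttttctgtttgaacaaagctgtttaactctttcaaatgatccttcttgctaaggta
Gm46358: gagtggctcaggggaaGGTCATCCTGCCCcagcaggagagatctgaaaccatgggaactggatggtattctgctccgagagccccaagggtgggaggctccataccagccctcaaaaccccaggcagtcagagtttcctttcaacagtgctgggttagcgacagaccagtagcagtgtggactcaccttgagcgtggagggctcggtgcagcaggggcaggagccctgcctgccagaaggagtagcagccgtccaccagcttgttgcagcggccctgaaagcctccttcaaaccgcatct
Gm39429: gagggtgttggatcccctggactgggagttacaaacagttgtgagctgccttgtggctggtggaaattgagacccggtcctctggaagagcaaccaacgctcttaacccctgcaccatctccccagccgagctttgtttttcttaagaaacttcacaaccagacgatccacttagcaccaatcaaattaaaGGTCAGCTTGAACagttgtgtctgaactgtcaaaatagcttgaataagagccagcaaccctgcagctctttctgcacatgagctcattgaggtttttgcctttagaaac
Gm35041: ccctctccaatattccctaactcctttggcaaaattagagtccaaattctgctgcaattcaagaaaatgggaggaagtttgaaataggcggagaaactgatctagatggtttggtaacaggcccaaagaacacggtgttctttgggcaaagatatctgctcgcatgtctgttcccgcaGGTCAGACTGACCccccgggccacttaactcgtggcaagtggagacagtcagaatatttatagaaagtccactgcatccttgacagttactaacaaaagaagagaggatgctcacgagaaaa

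The Gm46743 window is chr2:59420452-59420751 on the minus strand and lies under the peak whose nearest protein-coding gene was Dapl1, with an enrichment of 13.5. Enrichment is the authors' ratio of signal at the peak to a background that is not stated. The Gm46358 window, chr12:76910230-76910529 on the minus strand, lies under a peak near Fntb, which encodes the β subunit of protein farnesyltransferase, with an enrichment of 9.97. The Gm39429 window, chr9:110282621-110282920 on the minus strand, lies under a peak near Cspg5, a proteoglycan gene, with an enrichment of 8.37. The Gm35041 window, chr12:76972679-76972978 on the plus strand, lies under a peak near Max, which encodes the dimer partner of MYC proteins, with an enrichment of 5.10.

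The element searched was GGTCA and TGACC with 3 bases between them, on both strands, with at most 1 mismatch among its 10 fixed bases. Positions are counted from 1 at the 5′ end of the element as printed, with the consensus base first. The elements at Gm46743 and Gm46358 differ from it by A11C, that at Gm39429 by C12A, and that at Gm35041 by no base. A further 2 peaks held an element. The peak near Smad3, which encodes a transducer of TGF-β signals, had GCTCAGGCTGACC (G2C) at Gm39359 and an enrichment of 5.18. The peak near 1700129C05Rik had GGTCATAATGAAC (C12A) at Gm41162 and an enrichment of 5.73, and Gm33472, on the opposite strand, contains the same site. The centres of the 6 elements lay 33 to 231 bp from the summits, with Gm46358 at 33 bp, Gm46743 at 46 bp and Gm35041 at 65 bp.

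Elements of this kind were in 7 of 112 windows overlapped by visceral-only peaks, which is 6.25% (3.06 to 12.3%), while 0.884% of all 32585 windows held one. Among windows overlapped by distal peaks shared with scWAT the share was 9.09% (9 of 99). Those scWAT-shared peaks met the same limits on q-value and position and overlapped the scWAT list and no other. Counted by peak, 6 of the 102 visceral-only peaks with a window held an element, 5.88% (2.72 to 12.2%), against 11.0% (9 of 82) of the scWAT-shared peaks with a window. The intervals for the windows overlap (4.86 to 16.4% for the scWAT-shared peaks), so no difference between the classes was detectable at these counts.

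The elements were at the stronger visceral-only peaks. All 3 of the strongest peaks with a window held one, 5 of the 20 strongest did, and 6 of all 102. At an enrichment of 5 or more, 7 of 25 windows held an element, 28.0% (14.3 to 47.6%), and under 5 none of 87 did, for which 3 counts of the total allow a share of up to 3.45%. Among windows of scWAT-shared peaks, 6 of 64 held one at 5 or more and 3 of 35 under 5. The division at 5 was chosen after these values were seen.

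The shares that follow count a motif anywhere in a window that a peak overlaps, inside the peak or outside it. Many of these windows do not hold the summit, and some overlap the peak by a few bases. A single arm of the element, GGTCA, on either strand, was in 50% (40.9 to 59.1%) of the windows of visceral-only peaks. It was in 71.7% (62.2 to 79.6%) of the windows of scWAT-shared peaks and 40.6% of all windows. For C/EBP and AP-1 motifs the order was the opposite. The C/EBP motif TTGCNNAA, bound by factors of the adipocyte programme, was in 27 windows of visceral-only peaks, 24.1% (17.1 to 32.8%), against 10.1% (5.58 to 17.6%) for scWAT-shared peaks and 10.9% of all windows. The AP-1 motif TGANTCA was in 16, 14.3% (8.99 to 22%), against 5.05% (2.18 to 11.3%) and 7.85% of all windows. These shares are not particular to visceral-only peaks. Distal peaks shared with vWAT vehicle alone overlapped 28 windows, with the single arm in 42.9% (26.5 to 60.9%). Of the same 28 windows, the C/EBP motif was in 21.4% (10.2 to 39.5%) and the AP-1 motif in 10.7% (3.71 to 27.2%). In noncoding-gene windows alone, the single arm was in 51.5% for visceral-only and 79.7% for scWAT-shared peaks, the C/EBP motif in 30.3% and 10.1%, and the AP-1 motif in 16.7% and 4.35%. There the intervals of the single arm, 39.7 to 63.2% and 68.8 to 87.5%, do not overlap, and neither do those of the C/EBP motif, 20.6 to 42.2% and 5.002 to 19.5%. The windows had similar base composition, with a median GC content of 52.2% for visceral-only and 51.0% for scWAT-shared peaks.

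Peak strength differs between these classes, so the motif shares were also divided at an enrichment of 5. Under an enrichment of 5, the single arm was in 48.3% (38.1 to 58.6%) of 87 windows of visceral-only peaks and in 60.0% (43.6 to 74.4%) of 35 windows of scWAT-shared peaks, and the intervals overlap. The C/EBP motif was in 26.4% and 14.3% of these windows and the AP-1 motif in 17.2% and 8.57%, again with overlapping intervals. At 5 or more, the single arm was in 56.0% of 25 and 78.1% of 64 windows, the C/EBP motif in 16.0% and 7.81%, and the AP-1 motif in 4% and 3.13%. Within each class, the intervals under 5 and at 5 or more overlap for each of these motifs. The part of peak strength in the motif differences was not tested beyond this division. The TEAD motif GGAATG was in 19.6% of windows of visceral-only peaks (17.2% for scWAT-shared peaks, 14.6% of all windows) and the GATA motif AGATAA in 5.36% (8.08% and 11.2%). The longer NFI and PPAR/RXR motifs were in none of the 112 windows, for which 3 counts of the total allow a share of up to 2.68%. They were in 0.0368% and 0.0399% of all windows, so 112 windows are too few to read anything from their absence. A motif match is a description of the letters and not a sign of binding by that factor.

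**Figure D1:**
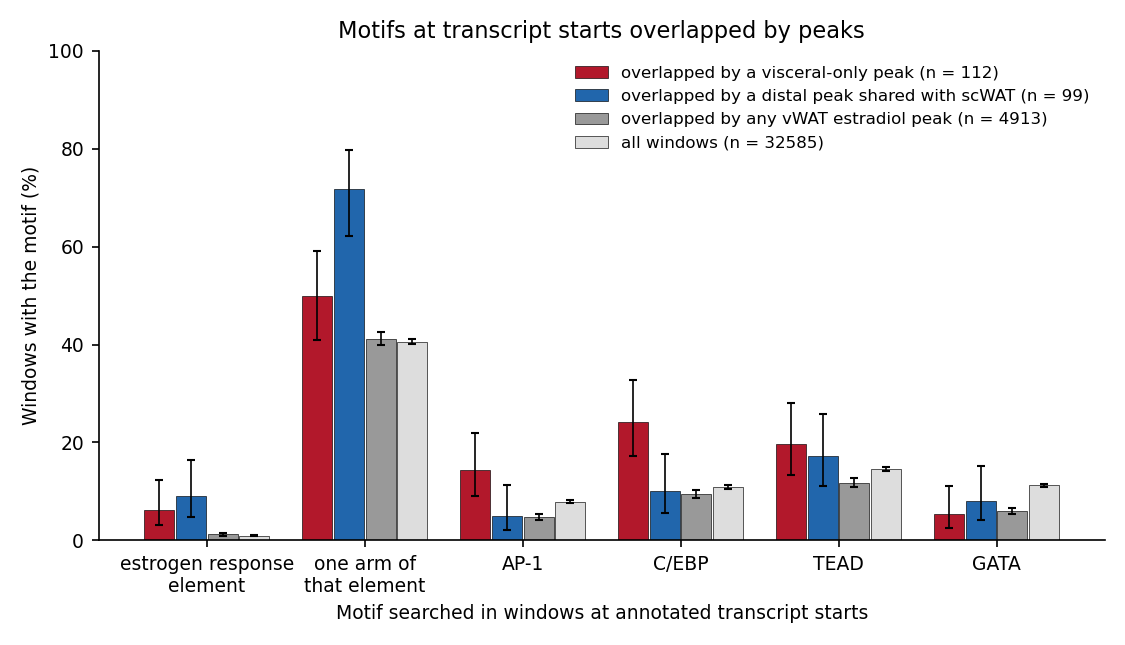
Bars give the share of 300-base windows at annotated transcript starts that hold each motif (y axis, %), for windows overlapped by a visceral-only peak, by a distal peak shared with scWAT, by any vWAT estradiol peak, and for all windows; lines are 95% Wilson intervals. The single arm is lower for visceral-only (50%) than for scWAT-shared peaks (71.7%), and C/EBP (24.1% against 10.1%) and AP-1 (14.3% against 5.05%) are higher.

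Only 102 visceral-only peaks (1.76%) overlapped a window, against 82 scWAT-shared peaks (2.19%), so these sequences describe a small part of the class. The rule kept summits over 1 kb from the ends of protein-coding genes, where most windows lie.

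Visceral-only peaks were mostly weak peaks of the vWAT estradiol list. Their enrichment had a median of 4.58 (interquartile range 4.08 to 5.21, range 2.59 to 17.4), against 5.95 (4.605 to 8.11, up to 20.9) for the 3745 scWAT-shared peaks and 4.81 (4.19 to 5.61, up to 12.96) for the 284 peaks shared with vWAT vehicle alone. The median −log10 q-value was 3.60, against 7.88 and 4.31, and the median width was 372 bp, against 505 and 426 bp. These values belong to the measure that chose the peaks and are given as a description. At the threshold, the 158 peaks just inside it (−log10 q of 2 to 2.1) had a median enrichment of 3.82 and a median width of 303.5 bp, and the 147 otherwise eligible peaks just outside (1.9 to 2) had 3.77 and 307 bp.

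Visceral-only peaks made up 47.7% of the 12136 vWAT estradiol peaks that met the limits on q-value and position, and that share was lower among strong peaks. It was 63.0% at an enrichment under 4, 64.3% from 4 to 5, 51.0% from 5 to 6, 32.1% from 6 to 8, 12.5% from 8 to 10 and 3.02% (31 of 1027) at 10 or more. The scWAT-shared peaks were 20.4% of the lowest of these bins and 58.0% of the bin from 8 to 10. Ranked by p-value among all vWAT estradiol peaks, 1 of the first 500 was visceral-only (0.2%), and 2246 of those ranked 10001 to 15000 were (44.9%).

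**Figure D2:**
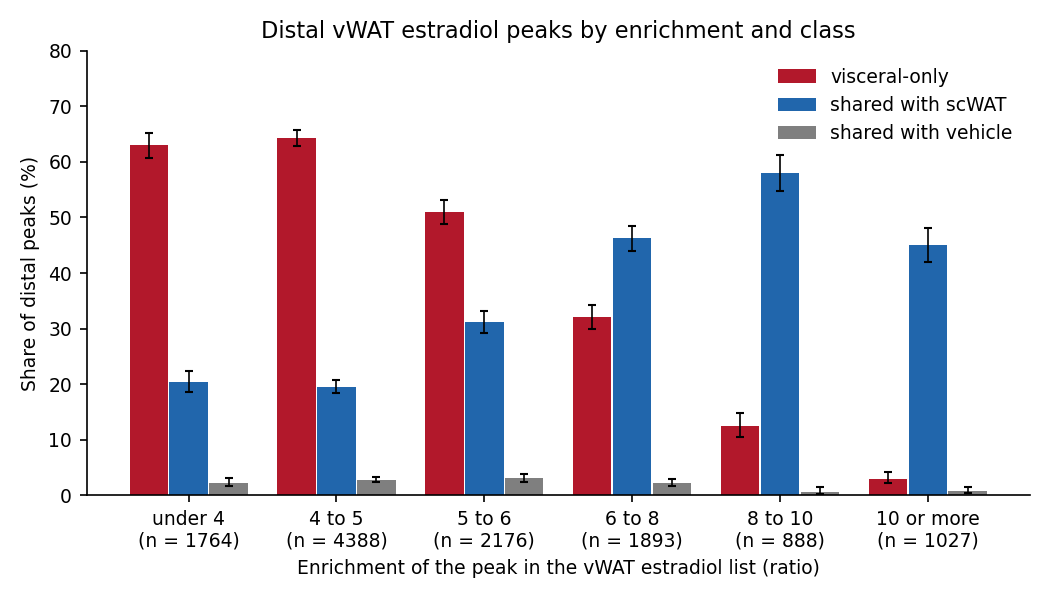
Bars give the share (y axis, %) of distal vWAT estradiol peaks in each range of enrichment (x axis, ratio, with the number of peaks) that are visceral-only, shared with scWAT alone or shared with vehicle alone; lines are 95% Wilson intervals. Visceral-only peaks hold 63.0% of the weakest bin and 3.02% of the strongest.

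A few visceral-only peaks were among the strong ones. The strongest lay near Gata4, which encodes a zinc-finger transcription factor of heart, gonad and the visceral mesothelium. This peak, chr14:63295873-63296559, had an enrichment of 17.4 and a −log10 q-value of 86.2, with its summit 24.5 kb outside the gene span. The nearest summit in any other list was 12.2 kb away, in the Liver list, and belonged to a weak peak with a −log10 q-value of 0.39. The next lay near Tagap, which is expressed in activated T cells, with an enrichment of 15.9 at 26.8 kb from the span. The third, chr17:48372774-48373392, had an enrichment of 15.8 and lay 5.87 kb from Treml1. It was also within 25 kb of Nfya and of Trem2, which encodes a lipid-sensing receptor of macrophages. The peak nearest to Fgf16, a growth factor gene, had 15.3 but was 89.0 kb from its span. The peak in Hunk, a protein kinase gene, chr16:90486197-90486761, had 14.8 and lay 56.8 kb from any summit of another list.

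Receptors, channel subunits and caveolae were among the genes next to the other strong peaks. Rxfp2, the receptor of the hormone INSL3, had a peak of 11.8 inside its span at chr5:150045802-150046436, 84.6 kb from any summit in another list. Kcne4, a potassium channel subunit, had one of 11.4 at 27.03 kb from its span, and Gria1, an AMPA receptor subunit, one of 11.0 inside its span. Cav2 had one of 10.9, chr6:17295127-17295750, at 6.28 kb, and this peak was also within 25 kb of Cav1, which encodes the main structural protein of caveolae. Lpgat1, an acyltransferase of phospholipid synthesis, had one of 10.8 inside its span. Nfia, a transcription factor of the brown fat programme, was nearest to a peak of 10.5 that lay 89.2 kb away. A further 13 of the 25 strongest peaks were nearest to Dapl1, Ska1, Sntg1, Fam53a, Serpinb6b, Trh, Actbl2, Gpatch2l, Prss45, Ulk4, Col15a1, Ap2b1 and Raph1, with enrichments of 10.5 to 13.5. Of the 25, 12 summits were inside a gene span and 13 outside, and 21 had no summit of another list within 10 kb.

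**Figure D3:**
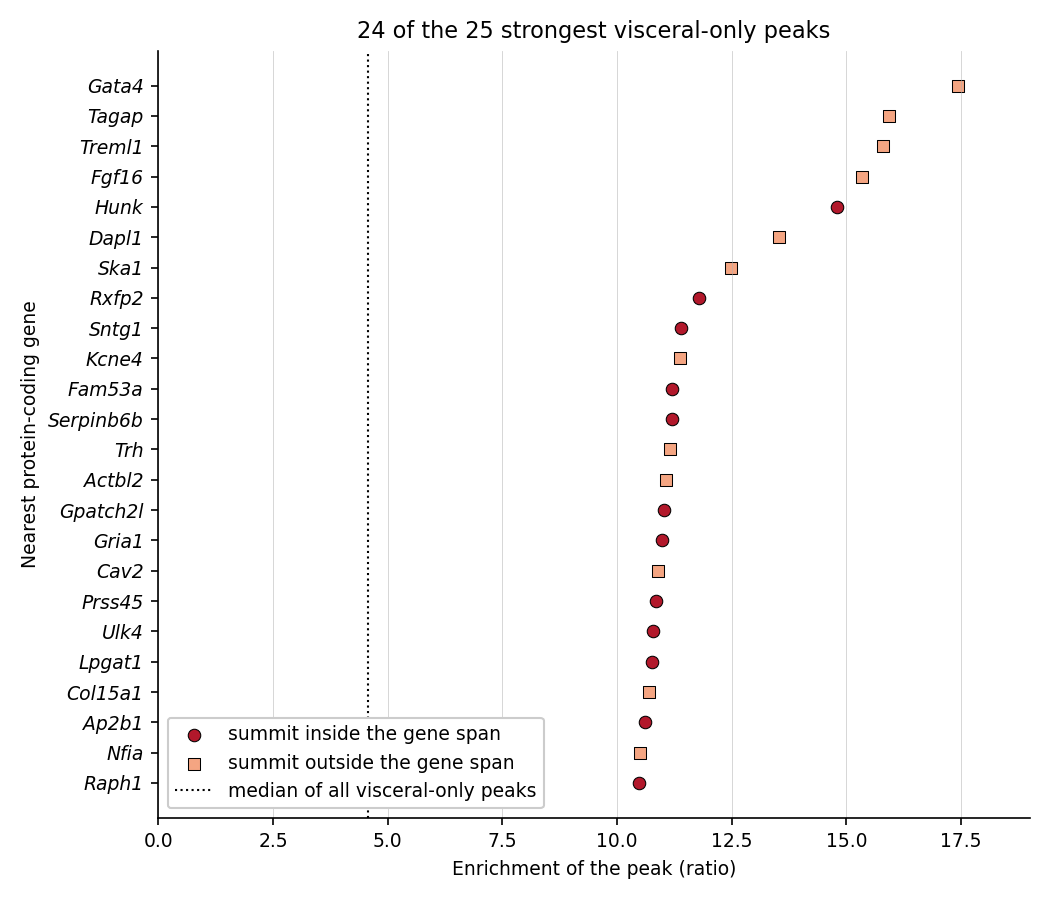
Points give the enrichment (x axis, ratio) of 24 of the 25 strongest visceral-only peaks, ordered by strength and named by the nearest protein-coding gene; circles are summits inside the gene span and squares outside it. All lie at 10.5 or above, against a median of 4.58 for the class (dotted line).

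Most visceral-only peaks lay inside genes. Summits were inside a protein-coding gene span for 59.8% (58.5 to 61.1%) of visceral-only peaks, against 57.5% (56.0 to 59.1%) of scWAT-shared, 62.0% (56.2 to 67.4%) of vehicle-shared and 58.0% (57.1 to 58.9%) of all distal peaks. A further 1298 (22.4%) were outside but within 25 kb, and 1031 (17.8%) were 25 to 100 kb away. A gene end lay within 5 kb of 15.1% (14.2 to 16.0%), against 16.9% (15.7 to 18.1%), 20.4% (16.1 to 25.5%) and 17.5% (16.8 to 18.1%) of these classes. The gene table gives spans without exons or strand, so exons, introns and untranslated regions were not assigned. By chromosome, visceral-only peaks were 43.1% (chromosome 19) to 52.9% (chromosome 14) of the distal peaks.

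Most visceral-only peaks had a summit of another list within 100 kb, as did most distal peaks. The nearest summit of any other list, vWAT vehicle included, was a median of 12.7 kb away. It was within 10 kb for 2453 visceral-only peaks (42.3%) and within 100 kb for 96.7%. Of all distal peaks, which include those that overlap other lists, 72.5% had one within 10 kb and 98.4% within 100 kb. Although no visceral-only peak overlapped another list, 310 of their summits (5.35%) were within 1 kb of a summit in one. The median distance was 25.8 kb to the scWAT list, 29.4 kb to Liver, 72.5 kb to vWAT vehicle and 112 kb to BAT, an order that follows the lengths of the lists except for scWAT and Liver. Most visceral-only peaks were solitary, since 4798 (82.8%) had no other within 12.5 kb, against 82.1% of scWAT-shared peaks. There were 398 pairs, 53 groups of 3, 9 of 4 and 1 of 5. The group of 5 spanned 33.2 kb at Rbpms, an RNA-binding protein gene, with enrichments of 3.98 to 4.88. Groups of 4 lay at Foxo6, a forkhead factor gene (up to 7.70), at Lrig1, a growth factor receptor inhibitor gene (up to 5.92), and 43.8 kb from Myc (up to 6.03).

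In total 3667 genes were nearest to a visceral-only peak, 2481 of them (67.7%) to a single one, and 101 genes to 5 or more. Inside the span or within 25 kb, 4755 of 21627 protein-coding genes had a visceral-only peak (22%), and this share rose with gene length. It was 11.3% for spans under 10 kb, 20.1% from 10 to 30 kb, 27.6% from 30 to 100 kb and 49.3% above 100 kb. The genes nearest to the most peaks were long, with a median span of 737 kb for the 10 at the top, against 17.3 kb for all genes. Lrmda, named for melanocyte differentiation, with a span of 1037 kb, was nearest to 18 and Tshz2, a teashirt zinc-finger gene of 440 kb, to 14. Lpp, a focal adhesion protein gene of 599 kb, and Trabd2b, which encodes a protease that acts on Wnt proteins and spans 208 kb, were nearest to 12 each, and had 5 and 9 visceral-only peaks in the span or up to 25 kb from it. Arhgap26, a signalling gene, had 11, Wwox, an oxidoreductase gene, 10, and Asic2, Mast4, Rora, Tenm4 and Tgfbr3 9 each.

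Counting peaks in the span or up to 25 kb from it, per length of span with 25 kb added on each side, Trabd2b had 3.48 visceral-only peaks per 100 kb, Tgfbr3, the TGF-β co-receptor betaglycan, 3.43, Tshz2 2.86 and Lrmda 1.66. In Tshz2 the strongest had an enrichment of 9.67 (chr2:169907927-169908465), and its 22 vWAT estradiol peaks compare with 6 in scWAT, 1 in BAT, 7 in Liver and 6 in vWAT vehicle. Lrmda had 28 in vWAT estradiol, 9 in scWAT, 2 in BAT, 4 in Liver and 4 in vehicle. Trabd2b had 20, 13, 1, 2 and 1 in the same order. Lists of different length give such counts a different base, so the order describes these lists.

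A gene with a visceral-only peak usually had a listed peak in other tissues as well, where peaks of any q-value were counted. Of the 4755 genes, 78.8% had a scWAT peak, 37.0% a BAT peak, 80.5% a Liver peak and 54.6% a vWAT vehicle peak by the same distance, against 61.0%, 29.7%, 67.5% and 44.8% of all genes. Only 286 of the 4755 (6.01%) had a peak in none of the other lists, against 21.9% of all genes. Among the 429 genes with 3 or more visceral-only peaks, 7 had none elsewhere. Among them were Grb10, an adaptor that dampens insulin and growth factor receptors (4 peaks, up to 5.28), Mrc1, the macrophage mannose receptor (3, up to 4.59), Rxfp2 (3, up to 11.8), Sestd1 (3, up to 5.18) and Gm1113 (3, up to 4.57).

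Gene lists were then read against the share of 22% for all protein-coding genes. The 4 lists with the highest shares cover insulin response, fat synthesis, adipocyte differentiation and retinoids. Of the insulin and glucose list 14 of 20 genes had a visceral-only peak (70.0%, 48.1 to 85.5%), of lipogenesis 13 of 20 (65.0%, 43.3 to 81.9%), of adipogenic factors 12 of 21 (57.1%, 36.5 to 75.5%) and of retinoid metabolism 11 of 20 (55.0%, 34.2 to 74.2%). Several lists of other cell types were among the lowest, as was that of subcutaneous developmental factors (4 of 18, 22.2%). Macrophages and inflammation had 5 of 20 (25%), neurons 5 of 20 (25%) and hepatocytes 4 of 20 (20%). Gonad and reproductive tract had 3 of 19 (15.8%) and T and B lymphocytes 2 of 16 (12.5%). Other cell-type lists were higher, with brown fat at 9 of 18 (50%) and VEGF and endothelium at 6 of 18 (33.3%). Gene length differs too, with a median span of 63.5 kb for the insulin list, 47.3 kb for lipogenesis, 30.8 kb for adipogenic factors and 31.2 kb for retinoid metabolism, and of 10.2 kb for hepatocytes and 12.8 kb for lymphocytes. The neuron list, also among the low ones, had a longer median span of 56.0 kb. The order of the lists differed under other settings. At a −log10 q-value of at least 5, where 7.21% of all genes had a peak, adipogenic factors were at 38.1%, retinoid metabolism, fatty acid uptake and adipokines at 25%, and insulin and lipogenesis at 20%. With every peak list held to the same size, where 4.19% of all genes had one, fatty acid uptake was at 25%, matrix at 20.8%, insulin at 20%, adipogenic factors at 19.05% and lipogenesis and retinoids at 15%. Brown fat was then at 5.56%, lipolysis and lipid droplet at 4.17% and adipokines at 0%. The same lists were also bound by scWAT-shared peaks, which were at 15.1% of all genes and at 9, 10, 9 and 8 genes of the insulin, lipogenesis, adipogenic and retinoid lists.

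**Figure D4:**
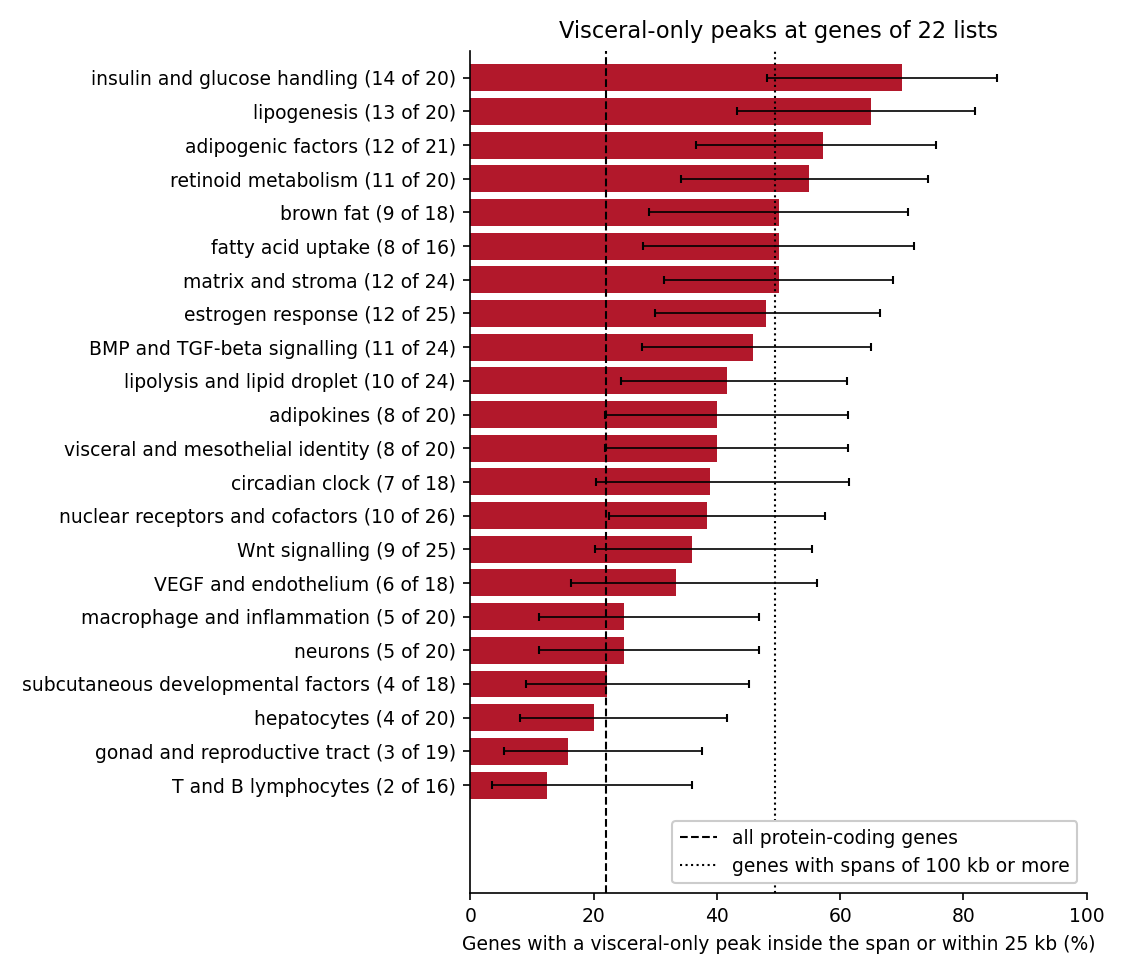
Bars give, for each of 22 gene lists, the share of genes that have a visceral-only peak in the span or up to 25 kb from it (x axis, %, counts in brackets), with 95% Wilson intervals. Dashed and dotted lines mark all protein-coding genes (22%) and genes with spans of 100 kb or more (49.3%); the insulin list is at 70.0% and lymphocytes are at 12.5%.

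In insulin signalling, visceral-only peaks lay at the receptor gene Insr (3, up to 4.07), the adaptor genes Irs1 (2, up to 3.98) and Irs2 (1, 4.49), the kinase genes Akt1 (3.85) and Akt2 (4.84), and the phosphatase gene Ptpn1, which turns the receptor off (3, up to 6.35). Foxo1, the transcription factor that insulin excludes from the nucleus, had the strongest of the list (2, up to 8.20). Tbc1d4, which holds back glucose transporter vesicles, had 1 of 5.81. At Grb10 all 4 vWAT estradiol peaks inside the span or within 25 kb were visceral-only. A stronger one, 7.40 at 85.8 kb from the span, was also in the scWAT list. At Tbc1d1 only 1 of 10 was, and the scWAT list had 11 peaks there.

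In lipogenesis, the enzyme genes Acaca, Acacb and Elovl6, for malonyl-CoA and fatty acid elongation, had 3 each, up to 5.65, 4.62 and 4.78. Thrsp, a regulator of lipogenesis, had 2 (up to 6.77), Me1, which makes NADPH, 1 of 6.68, Mogat1 1 of 5.61, and Srebf1, the transcription factor of the pathway, 1 of 3.98. Each of these genes also had scWAT peaks. In fatty acid uptake, the Cav1 and Cav2 peak (10.9) was the strongest, followed by Fabp5, a fatty acid chaperone, with 6.12 and no peak in the other 4 lists. Lrp1 had 1 of 8 (6.01), Acsl3 1 (5.48), the fatty acid transporter Cd36 2 of 4 (up to 4.55), and lipoprotein lipase Lpl 1 of 4 (3.76).

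Of the lipolysis and lipid droplet list, 10 of 24 genes had a visceral-only peak (41.7%). With every peak list held to the same size the share was 4.17%, against 4.19% of all genes. Pde3b, the phosphodiesterase through which insulin curbs lipolysis, had the strongest at 9.41, its only vWAT estradiol peak. Plin1, which coats the adipocyte lipid droplet, had 2 visceral-only peaks (4.75 and 4.33) at 1.79 and 6.17 kb from its span and no peak of another list within 25 kb. Another protein-coding gene, and not Plin1, was the nearest to both peaks. Prkar2b, of protein kinase A, had 2 of 4 (up to 5.58), Abhd5, the co-activator of adipose triglyceride lipase, 1 of 2 (5.18), and the lipase gene Pnpla2 1 of 5 (3.92). Hormone-sensitive lipase Lipe had none among its 2 peaks.

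Adipogenic factors had several each. Zfp423, a factor of preadipocyte commitment, had 4 of 9 (up to 8.26), Ebf1 4 of 9 (up to 7.28), Ebf2 4 of 5 (up to 6.07), Pparg, the central adipogenic nuclear receptor, 3 of 6 (up to 4.603), Klf15 2 of 3 (up to 5.24) and Cebpa 1 of 4 (4.87). Among adipokines 8 of 20 genes had one (40.0%), and none did with every peak list held to the same size. Leptin, Lep, had 2 of its 4 peaks visceral-only (6.13 and 5.69), 1 peak in scWAT and none in BAT, Liver or vWAT vehicle. Agt, angiotensinogen, had 3 of 6 (up to 6.12), Angpt1 3 of 3 (up to 5.73), Nrg4 3 of 5 (up to 5.42) and Adipoq 1 of 2 (4.89). Of the brown fat list 9 of 18 had one (50%), led by Esrrg (8.15), and Ucp1 had 1 of 2 (4.64).

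In retinoid metabolism, receptors, carriers and enzymes were all represented. Rarb, a retinoic acid receptor, had 4 of 5 (up to 7.42) and Rxra, the shared partner of many nuclear receptors, 1 of 3 (5.87). Crabp1, a cytosolic carrier of retinoic acid, had 1 of 1 (4.08). Of the enzymes that make retinoic acid, Rdh10 had 1 of 2 (5.27), Aldh1a1 3 of 6 (up to 4.84) and Aldh1a2 1 of 2 (4.18), and Cyp26b1, which degrades it, had 1 of 1 (4.12).

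Of genes that mark visceral and mesothelial identity, 8 of 20 had a visceral-only peak (40.0%, 21.9 to 61.3%), against 4 of 18 subcutaneous developmental factors (22.2%, 9.001 to 45.2%). The intervals overlap. At a −log10 q-value of at least 5 the shares were 5% and 5.56%, below the 7.21% of all genes. Gata4 had 2 of 5 (17.4 and 5.06), Gata6, its relative, 1 of 2 (4.73), and Wt1, a mesothelial transcription factor of visceral fat progenitors, 2 of 4 (up to 3.87). Gpm6a had 2 of 2 (up to 5.10) and Cdh3 1 of 1 (3.86), both with no peak in the other lists. Msln, Upk3b and Tcf21, which also mark the visceral depot, had 2, 1 and 1 vWAT estradiol peaks and no visceral-only peak. The 3 subcutaneous genes Hoxc8, Hoxc9 and Hoxc10 share a single peak (4.40), and Meox1 had 1 of 2 (5.13).

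Of the estrogen response list, 12 of 25 genes had a visceral-only peak (48.0%) and the same number, 12, had a scWAT-shared peak. With every peak list held to the same size the share was 4%, against 4.19% of all genes. Esr1, which encodes ERα, had 5 of 15 (up to 4.23) with 10 scWAT, 1 BAT, 6 Liver and 2 vWAT vehicle peaks. Greb1, a classical estrogen target, had none of 4, and Pgr, the progesterone receptor gene, 1 of 4 (4.07). Igf1, a growth factor induced by estradiol in the uterus, had 5 of 5 within 25 kb. Other cofactors and targets were Nrip1 (2 of 4, up to 5.25), Adcy9 (3 of 4, up to 5.91), Igfbp4 (2 of 4, up to 4.78) and Myc (2 of 2, up to 4.65). Nuclear receptors and cofactors had 10 of 26 (38.5%), among them Thrb (4 of 8, up to 6.12), Ppard (2 of 3, up to 5.21) and Vdr (3 of 5, up to 5.02). Of the circadian clock 7 of 18 had one (38.9%), of which Rora had 9 of 12 (up to 8.27).

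The lists of secreted signals, vessels and stroma ranged from 33.3% to 50%. BMP and TGF-β signalling had 11 of 24 (45.8%), led by Ltbp1, which stores latent TGF-β in the matrix (7 of 12, up to 7.33), and including the ligand genes Tgfb1 (6.004), Tgfb2 (4.49) and Tgfb3 (5.31). Wnt signalling had 9 of 25 (36%), led by the ligand Wnt5b (7.49) and the feedback inhibitor Axin2 (2 of 2, up to 6.33, with no peak in the other lists). VEGF and endothelium had 6 of 18 (33.3%), with Angpt2, an antagonist of the Tie2 receptor, at 2 of 2 (up to 7.07) and no peak elsewhere. For the matrix list 12 of 24 genes (50%) had a visceral-only peak, with none above 5.19, and 17 had a scWAT-shared one. Fbn1, fibrillin, had 1 of its 11 vWAT estradiol peaks visceral-only and 11 peaks in scWAT. In the macrophage list, Trem2 (15.8), Mertk (6.17), Ccl2 (3 of 4, up to 4.66), Mrc1 and Csf1r (4.44) were the 5 with a peak. The peak of 15.8 was nearest to Treml1 and also within 25 kb of Nfya.

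The loci differ in how visceral-only peaks sit among shared ones. Within 100 kb of the Gata4 span, 5 of 14 vWAT estradiol peaks were visceral-only, and the others included one of 11.1 at 20.8 kb from the span that had a counterpart in scWAT, BAT, Liver and vehicle. At Igf1, 7 of 13 were visceral-only, with enrichments of 3.81 to 8.46, and they stood beside 3 stronger sites of 12.4 to 15.7 that the scWAT list also held. Of those 3 sites, the vehicle list held 2. At Lep, 4 of 8 were visceral-only, with enrichments of 3.85 to 6.13, and scWAT and Liver had 2 peaks each, BAT none and vehicle 1. The strongest peak there, 12.7 at 16.2 kb from the span, was also in the scWAT list. At Plin1 the visceral-only peaks (4.19 to 4.75) lay 1.79 to 25.5 kb from one end of the span, and each had another gene as its nearest. The strong peak at 61.1 kb on the other side (13.1) was also in the scWAT, Liver and vehicle lists.

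**Figure D5:**
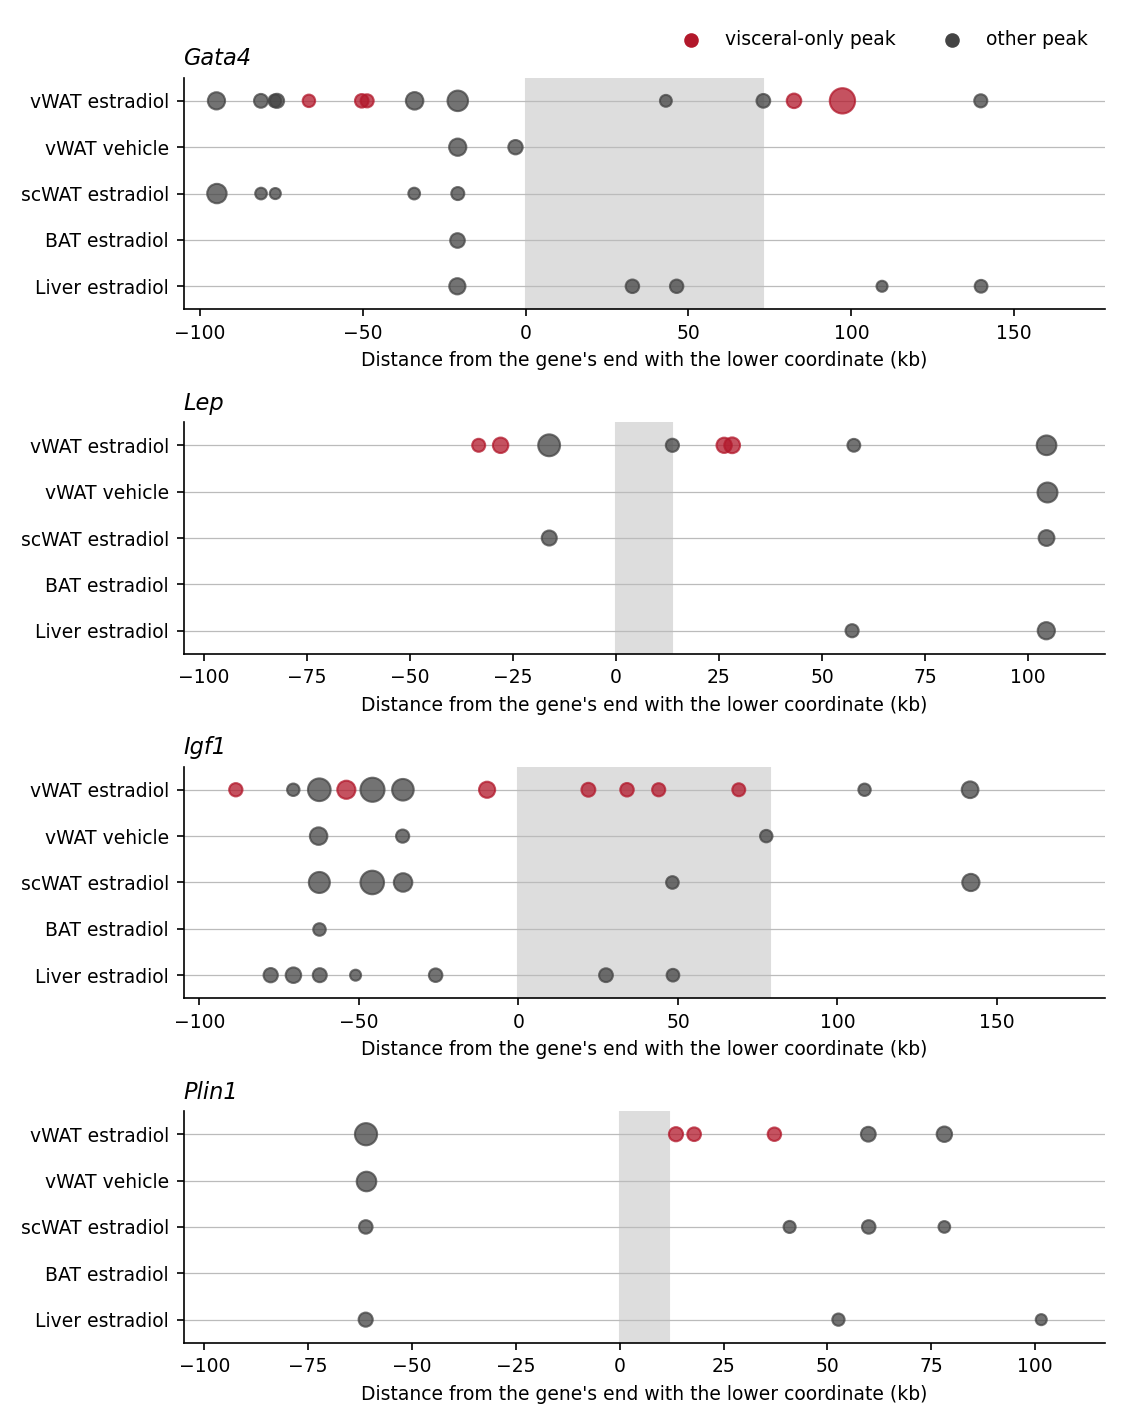
Each row of dots gives the summits of one peak list around Gata4, Lep, Igf1 and Plin1 (x axis, kb from the gene's end with the lower coordinate; grey band, gene span), with dot area growing with the enrichment within that list. Visceral-only peaks within 100 kb of the span, whichever gene is nearest to them, are red: 5 at Gata4, the strongest at 17.4, 4 at Lep, 7 at Igf1 and 3 at Plin1.

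Near microRNA genes, 36 of 1005 hairpins had a visceral-only summit within 5 kb and 9 within 1 kb. No like count was made for other peaks or sites, so whether these numbers are high or low was not tested. The nearest were at Mir6404 (0.092 kb, enrichment 4.58), Mir7212 (0.257 kb, 6.12) and Mir5616 (0.33 kb, 4.08). Mir22 was at 0.796 kb (3.44), Mir30a at 1.05 kb (4.84), and Mir365-1 and Mir193b, which neighbour each other, at 1.84 and 2.27 kb.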

How the data were processed

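ERα ChIP-seq of vWAT, scWAT, BAT and Liver of CD-1 mice was used. H3K27ac ChIP-seq and RNA-seq of the series were not used here. Groups came from the sample labels. Per the submitters' processing notes, reads were handled on mm10 with tools that include BWA 0.7.12 and HOMER. The sources used here name neither the peak caller nor its background, nor say how libraries were pooled. The authors' deposited values per peak are an enrichment ratio, a −log10 p-value, a −log10 q-value, the summit, and a score that equals 10 times the −log10 p-value, shortened. Depth per library is unknown from the lists, so enrichment was compared within a list alone.

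An overlap of 1 bp made peaks of different lists shared. Genes and spans came from RefSeq GRCm38.p6. Coordinates count from 1. Shares carry 95% Wilson intervals. Python 3.11.15, pandas 2.3.3, numpy 2.4.6 and scipy 1.17.1 were used. Overlaps, distances and the search for the exact estrogen response element were checked on simulated data. The searches for the other motifs were not checked in this way.

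The members, the gene lists and the comparisons were chosen with earlier results of these data known. All 431 genes of the 22 lists were found in the gene table. Genes named are those nearest to the 25 strongest peaks, the 10 with most peaks (11 with ties), up to 4 genes of each list by strongest peak, and Gata4, Gata6, Wt1, Esr1, Greb1 and Pgr. Others were named after their values were seen. Some genes that this rule picks are not reported here. The motif search was planned on 300 bases around each summit. With no genome at hand it used the 300-base windows at annotated starts. NFI and PPAR/RXR motifs were searched with longer patterns.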

Additional observations from a re-analysis of the deposited data

How the results depend on the processing

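The number of visceral-only peaks, 5794, became 1561 at a −log10 q-value of at least 5 and to 888 when every list was held to its 5193 strongest peaks by p-value, and the genes with one to 1559 and 907. Genes of the lists with one, 173, became 59 and 41. All 3 counts stayed within 1.5 times under the other alternatives. Median enrichment was 4.40, 4.90 and 5.95 at a −log10 q-value of at least 1.3, 3 and 5, and 7.82 with lists of equal size. Median width was 361, 398 and 462 bp at these q-values, 545 bp at equal size and 378 bp when summits within 200 bp, in place of an overlap, counted as shared. The share inside spans was 72.7% for peaks at most 25 kb from a span and 57.3% at equal size. The share of windows with an estrogen response element was 22.2% at a −log10 q-value of at least 5, 5.45% for windows that hold the summit and 10.6% for noncoding-gene windows alone, the last 2 chosen after seeing the data. Of 220 list counts, 170 were within 1.5 times. The 25 strongest peaks stayed in the class under the other alternatives, but 22 did at over 5 kb from gene ends and 16 at up to 25 kb from spans. The planned motif search around summits, in 300 bases and, as an alternative, in 200, was not run, because no genome was at hand. No paired analysis was possible because the lists hold no values per library, and for the same reason no library could be left out. Unequal list length and unknown depth limit what absence from a list shows.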
